A study of Caenorhabditis elegans with 2 samples.

Results

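The heterochronic genes set the order of developmental events in the larva of Caenorhabditis elegans, and 8 of them were examined for cloned 3′ ends: lin-14, lin-28, lin-41, hbl-1, daf-12, lin-29, lin-42 and lin-46. They were taken by name from the 19973 protein-coding genes of the WBcel235 annotation. Of the 4818 intervals in the list used here, 1 met a stop codon, 3′ untranslated region (3′ UTR) or coding exon of these 8 genes by at least 10 nt, and it lay on lin-46. No interval met lin-14, lin-28, lin-41, hbl-1, daf-12, lin-29 or lin-42.

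In this pathway, microRNAs end early larval programmes by pairing with sites in the 3′ UTRs of their targets, which lowers the protein made from them. The microRNA lin-4 acts on lin-14, a nuclear protein gene of the earliest larval fates, and on lin-28, an RNA-binding protein gene that also restrains the maturation of let-7. The let-7 family acts later on lin-41, a TRIM-NHL RNA-binding protein gene, on hbl-1, a hunchback-like zinc finger gene, and on daf-12, a nuclear receptor gene for steroid signals. Downstream, lin-29 encodes the zinc finger factor that starts the adult programme and lin-46 a scaffold-like protein that acts after lin-28. The period-related gene lin-42 helps to time the larval cycle. Of the 8, lin-29 and lin-46 are best known as downstream genes, not as microRNA targets, so the label of microRNA regulation does not hold equally for all, and an interval list cannot check it.

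The RNA came from whole N2 worms, the wild-type laboratory strain, of mixed stages, fed OP50 bacteria on NGM plates. It is 1 pooled library of 3′ RACE (rapid amplification of cDNA ends) minipools, 6432 in number, read by 454 pyrosequencing. A forward primer chosen for each transcript fixed one edge of a product, and an oligo-dT primer the other. No second group and no replicate were analysed here, so no value has a replicate error and no test between groups was made. Each interval gives a position only, without read count, strand or gene, so depth per gene is unknown. The set of transcripts with a forward primer is not known here, so a gene without an interval may simply not have been a target.

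The list's numbering was first fitted to the annotation around each gene, because it drifts along the chromosomes. The shift added to the list's positions was 73 nt at lin-14, 68 nt at daf-12 and 37 nt at hbl-1, all on the X chromosome. On chromosome II it was 84 nt at lin-29 and −3 nt at lin-42. It was 6 nt at lin-28 and 8 nt at lin-41 on chromosome I, and 21 nt at lin-46 on chromosome V. These shifts rested on 71 (lin-14) to 151 (lin-41) intervals in a 2 Mb window around each gene. Between 54.9% (lin-42) and 69.97% (daf-12) of the interval bases in these windows then lay on annotated stop codons and 3′ UTRs. The shift was chosen to raise this share, so its size describes the fit and does not test it.

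The lin-46 interval ran over 185 nt (chromosome V, 12970527 to 12970711 in the list's numbering). Its 5′ edge lay in the last coding exon, 29 nt ahead of the stop codon's final base, and its other edge 155 nt past that base. The gene has 1 annotated transcript, whose 3′ UTR in a single exon is 153 nt long. The interval thus covered 100% of that 3′ UTR and ended 2 nt past the annotated end, a difference no larger than that between the shifts found there under other settings (19 to 21 nt). No other protein-coding gene had its 3′ end under this interval. The gaps to the next intervals were 4329 nt upstream, to that of R186.3, and 2244 nt downstream, to that of pnn-1.

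In size and position the lin-46 product lay near the middle of the list. Its length lay at percentile 50.5 of the 4818 intervals. Its 155 nt after the stop codon lay at percentile 48.5 of 3181 genes with an interval that starts at the stop codon. Here and below, such an interval begins at most 60 nt before the end of a stop codon, with the final base counted. By that count lin-46 had 30 nt, at percentile 33.8. Another 247 genes with such an interval had a 3′ UTR within 10 nt of that of lin-46. Their intervals ended at a median of 154 nt after the stop codon (interquartile range 146 to 162 nt). Of these, 193 (78.1%, exact Clopper-Pearson 95% interval 72.5 to 83.1) ended within 20 nt of an annotated end, as that of lin-46 did. Bracketed ranges after percentages below are of the same kind and cover counting error only.

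**Figure D1:**
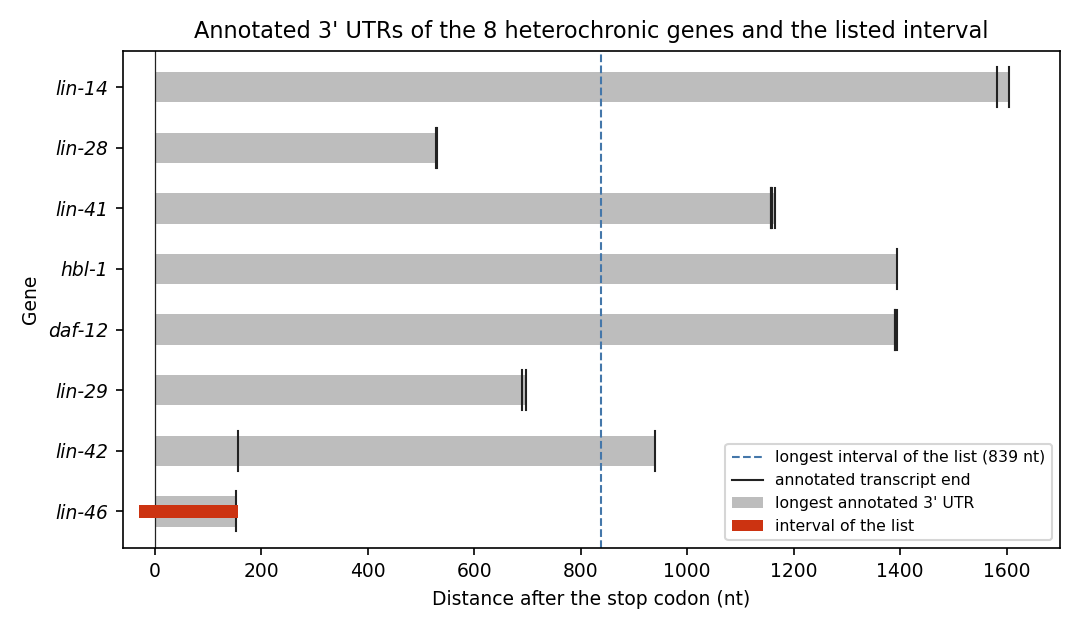
Annotated 3′ UTRs of the 8 genes as grey bars, in nt after the stop codon, with annotated transcript ends as black ticks, the lin-46 interval in red and the longest interval of the list (839 nt) as a dashed line. The red bar fills the 3′ UTR of lin-46, and 5 grey bars pass the dashed line. The tick of lin-42 at 156 nt belongs to another stop codon of that gene, here aligned with the first.

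The other 7 genes carry some of the longest 3′ UTRs in the annotation. The longest annotated 3′ UTR was 1604 nt in lin-14, where 2 transcripts end 21 nt apart. In hbl-1 and daf-12 it was 1394 nt, and 1165 nt in lin-41, whose 4 annotated ends lie within 8 nt of each other. For lin-42 it was 939 nt at one stop codon and 156 nt at a second one further upstream, and neither stop codon was met by an interval. It was 697 nt in lin-29 and 531 nt in lin-28. Among the 16794 genes with an annotated 3′ UTR, whose median was 131 nt, these 7 lay between percentile 92.0 (lin-28) and percentile 99.5 (lin-14), and lin-46 at percentile 56.3. The median of the 8 was 1052 nt. The longest interval of the list had 839 nt. The 3′ UTRs of lin-14, hbl-1, daf-12, lin-41 and, at its long form, lin-42 exceed this length, and those of lin-28 and lin-29 do not. It is the greatest length seen in this list, not a known limit of the method. Whether 3′ UTR length had a part in the missing intervals was not tested.

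The nearest intervals to these 7 genes lay on other genes or, at lin-28, on at least 10 nt of no protein-coding gene. At lin-29 the gap was 767 nt, and that interval lay in coding sequence of hmg-12, the gene that faces lin-29 and overlaps its 3′ end by 2 nt in the annotation. From lin-28 the nearest interval was 3527 nt away, and the facing gene F02E9.1, which overlaps the end of lin-28 by 16 nt, had no interval either. At hbl-1 the gap was 4155 nt, to an interval over the 3′ ends of F13D11.4 and acp-5. It was 10379 nt at lin-41 (to M04C9.3), 10628 nt at lin-42 (to clpr-2 and oac-30) and 15848 nt at daf-12 (to phf-31). lin-14 lay furthest from any interval, with 24788 nt to one at the stop codon of F46C3.7. These gaps exceed the change in shift between settings, which spanned at most 7 nt at each of these genes where a shift was applied, and under each setting run, no shift included, these 7 genes had no interval.

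The surroundings of the 7 genes were not empty. Around lin-14, 7 of the 28 protein-coding genes with a midpoint within 100 kb had an interval over at least 10 nt of stop codon or 3′ UTR. It was 10 of 45 around lin-28, 12 of 36 around lin-41, 8 of 26 around hbl-1, 3 of 19 around daf-12, 9 of 34 around lin-29 and 5 of 23 around lin-42. Around lin-46 it was 11 of 50. Together these were 65 of 261 genes (24.9%, 19.8 to 30.6).

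The count in the 8 genes could not be told apart from the share over the whole annotation. By the same measure, 20.7% of all protein-coding genes had an interval at the 3′ end (4138 of 19973), and 1 of the 8 heterochronic genes did (12.5%, 0.316 to 52.7). The range includes the share of all genes. With the stricter rule that the interval must also start at the stop codon, the shares were 15.9% of all genes and again 1 of 8. All genes include 3179 without an annotated 3′ UTR, of which 0 were called by either rule. Their stop codon alone is shorter than the overlap required, so they could not be called. The 8 genes all have an annotated 3′ UTR. Here and below, the 20.7% and 15.9% are thus lower than the shares among genes that could be called. Intervals over coding exons, with none over at least 10 nt of the 3′ end, were found in 2.44% of all genes. They were found in 0 of the 8, which allows a share of up to 36.9%. Such an interval can still start at a stop codon, as that at F46C3.7 did with 3 nt of 3′ end met. Some of these calls share an interval. Of 3741 intervals over a 3′ end, 482 met 3′ ends of genes on both strands.

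Genes were also grouped by their longest annotated 3′ UTR, and an interval at any 3′ end of the gene was counted. So counted, the share was about as high in the long classes as in those of middle length. The interval can lie at another stop codon with a shorter 3′ UTR, so these are not shares for the long 3′ UTRs themselves. The share was 30.5% (29.2 to 31.9) of 4795 genes with a longest 3′ UTR of 100 to 199 nt, the class of lin-46. It was 32.1% (29.8 to 34.5) of 1583 genes with 400 to 799 nt, the class of lin-28 and lin-29. In the class of 800 nt or more, which holds lin-14, lin-41, hbl-1, daf-12 and lin-42, it was 30.9% (27.3 to 34.7) of 618 genes. The lowest share among genes with a 3′ UTR was 14.2% (13.3 to 15.05), in the class of 1 to 99 nt. The shortest interval of the list was 96 nt, and its part in this share was not tested. Among genes with a longest 3′ UTR within 20% of the length of lin-14, 41 of 136 had an interval (30.1%, 22.6 to 38.6). The like share was 34.6% for lin-41 (29.1 to 40.4), 33.9% for hbl-1 and daf-12 (27.1 to 41.2), 33.1% for lin-28 (30.3 to 36.1), 30.4% for lin-29 (26.96 to 34.04), 28.95% for lin-42 (24.6 to 33.6) and 31.2% for lin-46 (29.4 to 32.9).

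**Figure D2:**
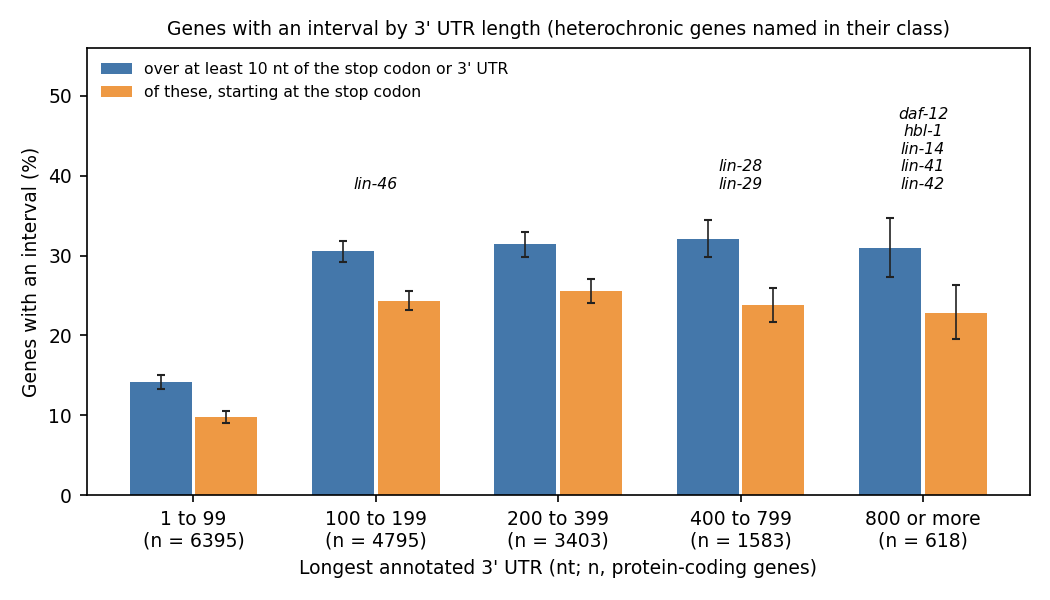
Percentage of protein-coding genes with an interval, by longest annotated 3′ UTR in nt, with exact 95% intervals as error bars. Blue bars count any interval over at least 10 nt of stop codon or 3′ UTR, and orange bars those that also start at the stop codon. From 100 nt upwards the blue bars lie between 30.5% and 32.1%. The names of the 8 genes stand above their class.

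Among intervals that start at the stop codon, the part of the 3′ UTR covered differed with its length. Where an interval started at a stop codon with a 3′ UTR shorter than that of lin-28, its median cover was 100% of the 3′ UTR, and 66.4% of 2940 genes (64.7 to 68.1) had an end within 20 nt of an annotated one. For the 241 genes with a 3′ UTR at least as long as that of lin-28, the median cover was 27.1%, and 18 ended within 20 nt of an annotated end (7.47%, 4.49 to 11.5). In 178 of the 241 the interval stopped short of its nearest annotated end by over 20 nt, and 0 covered the 3′ UTR fully. In the other 45 it ended over 20 nt past the nearest annotated end. That end can be the stop codon itself, where a transcript is annotated without a 3′ UTR. In gld-2, for example, the interval ended 508 nt after such an end but covered 45.8% of a 1110 nt 3′ UTR. In 85 genes the 3′ UTR at the stop codon met exceeded 839 nt, the length also passed in lin-14, hbl-1, daf-12, lin-41 and lin-42. By the longest 3′ UTR of the gene there were 124 such genes, some with the interval at a stop codon with a shorter one. In the 85 genes the intervals ended at a median of 158 nt after the stop codon (interquartile range 107 to 274 nt). Their median cover was 14.3% and their furthest end lay at 508 nt. Full cover was not possible in these 85, which are among the 241, as no interval exceeded 839 nt. The percentage covered is divided by the 3′ UTR length, so for intervals of like size it falls as that length grows. These intervals were picked for starting at the stop codon, so that they hold the part next to it was fixed by that choice. In the class with a longest 3′ UTR of 800 nt or more, 141 of the 191 genes with a 3′ interval had one that starts at a stop codon. That stop codon was not always the one with the longest 3′ UTR.

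**Figure D3:**
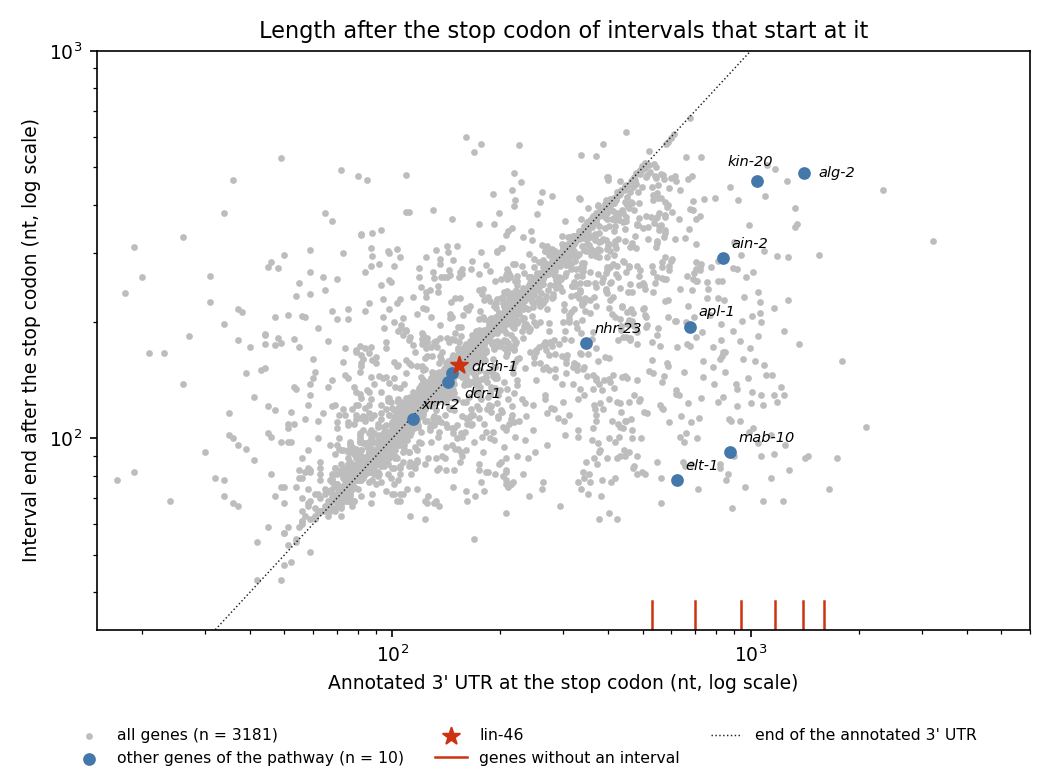
Interval end in nt after the stop codon against the annotated 3′ UTR length in nt, both on log scales, for intervals that start at a stop codon. Grey points are all 3181 genes, blue points 10 other genes of the pathway, the red star lin-46, and red ticks on the lower edge the 3′ UTR lengths of the 7 genes without an interval (hbl-1 and daf-12 share a tick). The star lies beside the dotted line that marks the end of the annotated 3′ UTR, and to the right most points fall below that line.

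Other genes of the pathway were looked up in the same way. Of 40 listed genes found in the annotation, 14 had an interval over the 3′ end (35%, 20.6 to 51.7), beside the 20.7% of all genes. In 10 of them it started at the stop codon (25% of the 40, 12.7 to 41.2), beside 15.9% of all genes. Their median longest 3′ UTR was 623 nt, and the classes from 400 nt upwards had shares of 30.9% to 32.1%. For intervals that start at the stop codon these classes had 22.8% to 23.8%. Both shares of the list were near those of these classes. The lengths in the list ran from 45 nt (col-19) to 1628 nt (lin-66), and no share matched to them gene by gene was computed. The list was chosen with earlier results of these data known, and its share is a description.

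Among 13 genes of the microRNA machinery, 7 had an interval at the 3′ end (53.8%, 25.1 to 80.8). The lower limit lies above the 20.7% of all genes and below the 30.5% to 32.1% of the 3′ UTR classes from 100 nt upwards. In 5 of the 13 the interval started at the stop codon (38.5%, 13.9 to 68.4), a range that includes the 15.9% of all genes. Full or nearly full 3′ UTRs were found for dcr-1, the gene of Dicer, which cuts microRNA precursors (97.9% of 143 nt), for drsh-1, the gene of the nuclear RNase Drosha (100% of 147 nt), and for xrn-2, an exoribonuclease gene (98.2% of 114 nt). The drsh-1 interval also started at the stop codon of gpx-1 on the opposite strand, and without strand it cannot be said which of the genes it came from. A second interval of dcr-1, of 124 nt, lay in coding exons, 3010 nt before the next stop codon. Longer 3′ UTRs in this group were covered in part. In alg-2, an Argonaute gene of the microRNA pathway, the interval held the first 485 nt of 1409 nt and ended 3 nt from a nearer annotated end. The GW182-related gene ain-2 had the first 292 nt of 836 nt covered. In alg-1, the other Argonaute gene of this pathway, the interval lay inside the 3′ UTR, from 902 to 1019 nt after the stop codon, 535 nt short of its 1554 nt end. The interval of cgh-1, a DEAD-box helicase gene, met the last 45 nt of a 942 nt 3′ UTR and ran 59 nt past it. ain-1, pash-1, nhl-2, pup-2, cid-1 and dcs-1 had no interval. The call at dcs-1 rests on a fitted shift of 4613 nt, and how well the list fitted the annotation there is not reported here.

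Among 17 timing regulators, 6 had a 3′ interval (35.3%, 14.2 to 61.7), a range that includes the 20.7% of all genes. The closest in role to lin-42 and lin-29 were kin-20, a casein kinase 1 gene of the period type, and mab-10, which encodes a cofactor of LIN-29. In kin-20 the interval covered the first 462 nt of a 1041 nt 3′ UTR and ended 121 nt short of a nearer annotated end. All its 486 nt lay on stop codon or 3′ UTR of some transcript, though 21 nt are coding in another. In mab-10 the first 92 nt of 874 nt were covered. The first 176 nt of 347 nt were covered in nhr-23, a nuclear receptor gene of moulting, and the interval ended 77 nt past a nearer annotated end. In elt-1, a GATA factor gene of the epidermis, the first 78 nt of 622 nt were covered. The interval of lin-3, the gene of an EGF-like ligand, started 412 nt after the stop codon and ended 150 nt past the 3′ UTR, and it also met the 3′ end of ttr-16 on the opposite strand. That of sea-2, a zinc finger gene, lay in 3′ UTR of one transcript that is coding sequence in another. In lep-2 and cdc-25.2 the interval lay in coding exons, 2984 nt and 1211 nt before the next stop codon.

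Of 7 candidate microRNA targets in the annotation, 1 had a 3′ interval (14.3%, 0.361 to 57.9), which could not be told apart from the 20.7% of all genes. It was apl-1, the gene of the worm's amyloid precursor-like protein, with the first 194 nt of a 678 nt 3′ UTR covered. For let-60, the Ras gene, with an annotated 3′ UTR of 819 nt, and for die-1, a zinc finger gene with 803 nt, no interval was found. In pha-4, a forkhead factor gene of the pharynx, the interval lay in coding sequence, 1925 nt before the next stop codon. That placement rests on a fitted shift of 4612 nt, which is larger than this distance. How well the list fitted the annotation around pha-4 is not reported here, so the placement is uncertain. Of 3 genes of the adult and larval cuticle or moult, col-19, bli-1 and mlt-10, 0 had an interval (upper limit 70.8%).

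**Figure D4:**
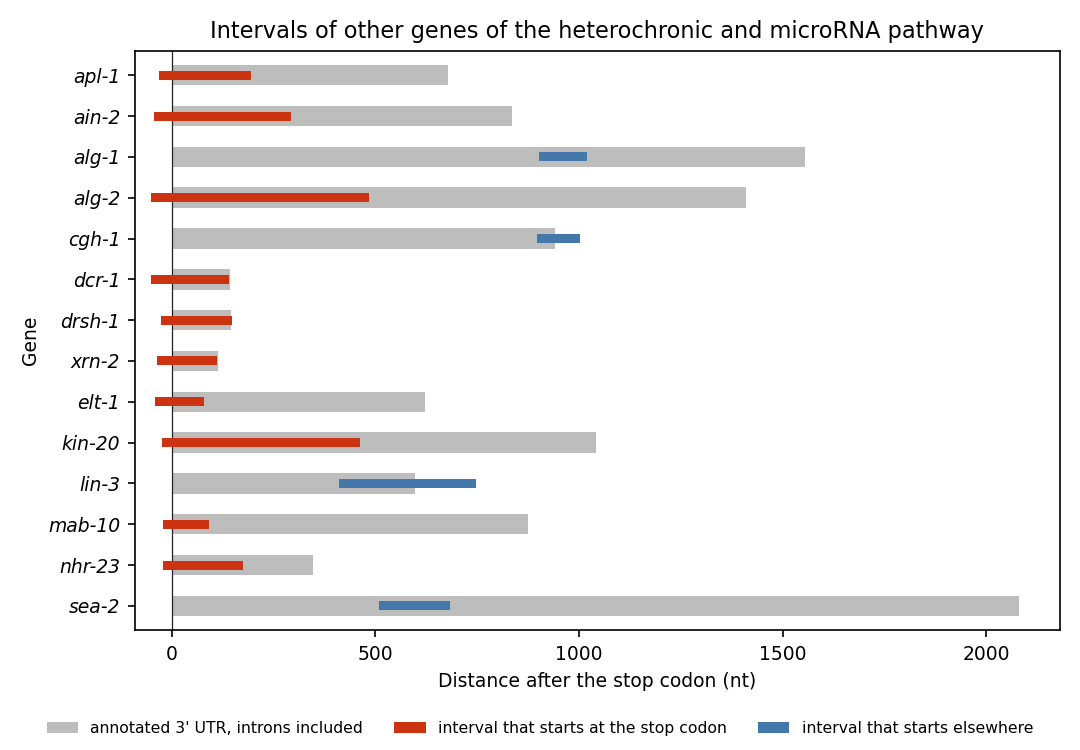
Intervals over the 3′ ends of 14 other genes of the pathway, in nt after the stop codon, drawn on the annotated 3′ UTR in grey with its introns included. Red intervals start at the stop codon and blue ones elsewhere. In dcr-1, drsh-1 and xrn-2 the red bar fills the grey one, and in the other 7 genes with a red bar it covers between 10.5% (mab-10) and 50.7% (nhr-23).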

How the data were processed

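Total RNA of mixed-stage N2 worms was reverse transcribed from oligo-dT, amplified with transcript-specific primers, cloned and sequenced on a 454 instrument, per the labels' protocols. The deposited list gives start and end positions in nt. The authors' deposited score is 0 in each row and was not used. Not given in the sources used here were assembly, aligner, filters and genome build. The second run of the labels was not analysed here.

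Positions were compared with Ensembl release 115 (WBcel235) using Python 3.11.15, NumPy 2.4.6, pandas 2.3.3 and SciPy 1.17.1. In a 2 Mb window centred on each listed gene (nearest 100 kb centre for other genes), the shift of up to 6000 nt with most interval bases on stop codons and 3′ UTRs was taken. It was then adjusted until the median distances from the 5′ edge to the stop codon on the 2 strands were close, and at the 8 genes they differed by at most 1 nt. Printed interval positions are the list's own. An interval met a gene when it overlapped its stop codons and 3′ UTRs, or coding exons, by at least 10 nt. Percentages covered refer to the longest 3′ UTR at the stop codon met. The functions were tested on simulated intervals with known shifts. Each simulated interval started ahead of an annotated stop codon, and the shifts grew in small regular steps along the chromosome. Products in coding exons and large abrupt shifts, such as those at pha-4 and dcs-1, were not simulated.

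The 8 genes and the pathway list (42 names, of which 40 matched protein-coding genes; lin-4 is a microRNA gene and lss-4 has no entry) were chosen with earlier results of these data known. The text names the 8 genes and each pathway gene with a 3′ interval. Other genes were named after their values were seen. Alternatives were window sizes of 1 and 3 Mb, overlap without adjustment, no shift, overlaps of 1 and 50 nt and the shortest 3′ UTR. microRNA sites were not examined, as no sequences were used here.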

Additional observations from a re-analysis of the deposited data

How the results depend on the processing

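The count of 1 of the 8 genes with a 3′ interval, and of 0 with coding intervals alone, held under each of the shift and overlap settings run. With a shift, in windows of 1, 2 or 3 Mb or by overlap alone, and with the shortest 3′ UTR, lin-46 ended 153 to 155 nt after the stop codon with 100% of its 3′ UTR covered. Without a shift (0 nt at lin-14, hbl-1, daf-12, lin-29 and lin-46), its end lay 134 nt after the stop codon and the cover was 87.6%. In that setting the number of genes with an interval starting at the stop codon was 1851, against 3181. Across the settings with a shift, genes with a 3′ interval numbered 3819 to 4319 and pathway genes 13 to 14. The planned search for microRNA seed matches was not run, since no sequence was used here. No paired analysis was possible because a single interval list was analysed. Positions without read counts limit what an absent interval can show.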
